A study of Homo sapiens with 4 samples.

Results

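The genes of the IL-18 and IL-1 family described here are 10 members, which are the cytokines IL18, IL1A and IL1B, the antagonists IL18BP and IL1RN, the receptor chains IL18R1, IL1R1, IL1R2 and IL1RAP, and the protease CASP1. They were found as the array probes that carry one of these gene names. This gave 18 of the 50238 probes that are not controls, and the probes of the array carry the symbols of 19614 genes in all. The members were chosen by their measured values in the comparison of the clones made below, so that their values in it are given as a description and without a test. Expression was measured on 4 single color arrays (Agilent) in HCT116 cells, an established line of colorectal carcinoma. The clone vec (2 arrays) carries the vector control, and the clone shpkp3-2 (2 arrays) carries a stable plasmid that encodes a short hairpin RNA against PKP3, a plaque protein of the desmosome. The labels name puromycin selection for the clones, while the methods of the study name blasticidin. RNA of vec 1 and shpkp3-2 1 was collected on one occasion, and RNA of vec 2 and shpkp3-2 2 on another. Each side of the comparison is a single clone.

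IL-18 and IL-1β are made as inactive precursors that caspase-1 cleaves inside an inflammasome, a protein complex that forms on sensing of damage or microbes. IL-18 is known to be made by the resting intestinal epithelium, while IL-1β is mainly a product of stimulated myeloid cells. Both families bind a receptor of paired chains that signals through MYD88 to NF-κB, and both are held back by soluble or decoy proteins. The RNA level says nothing of the cleaved protein.

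The targeted gene, PKP3, had signal intensities of 20850 on vec 1, 22840 on vec 2, 3414 on shpkp3-2 1 and 3078 on shpkp3-2 2. Between 60.5% and 63.5% of the spots were well above background on each array, and the arrays of each clone sat side by side on 1 slide, so that clone and position on the slide cannot be told apart. Of the epithelial and colorectal markers, 8 of 10 were well above background on all arrays. VIL1 was so on 1 array and CDX1 on none. Of the fibroblast markers 6 of 9 and of the monocyte and macrophage markers 4 of 10 were well above background on no array, and the latter were PTPRC, CD163, LYZ and SPI1. The other 6 monocyte and macrophage markers, CD14, CD68, CSF1R, ITGAM, AIF1 and TYROBP, were well above background on all arrays. Of the keratinocyte markers, 3 of 8 were above it on no array. The arrays hold bulk RNA, in which fewer cells of a type and less RNA per cell cannot be told apart.

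The members are known here through 60-base probes, and the files give no genome position for them. In a RefSeq gene list of GRCh38.p14, a later build than that of the array, IL1R2, IL1R1, IL1RL2, IL1RL1, IL18R1 and IL18RAP follow each other, IL1A and IL1B are neighbours, and IL18 and CASP1 lie on the same chromosome. A set of 3 probes is shown in lower case and without capitals, as the whole probe binds its target. The IL18 probe is shown because all values of IL18 rest on it, the IL18BP probe because it and the other IL18BP probe had differences of opposite sign, and the CASP1 probe because it was at background.
IL18: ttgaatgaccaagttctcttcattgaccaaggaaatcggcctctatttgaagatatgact
IL18BP: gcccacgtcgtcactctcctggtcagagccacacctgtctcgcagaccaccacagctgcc
CASP1: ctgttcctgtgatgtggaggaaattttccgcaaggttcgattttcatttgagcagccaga

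Each value below is the log2 of the signal intensity minus the 75th percentile of its array, and a difference is shpkp3-2 minus vec. A member is given by its brightest probe over the 4 arrays. The brightest probe was well above background on all 4 arrays for 7 of the 10 members, while the probes of IL1A, IL1B and CASP1 were well above background on none of them. Of the 7 members, 5 had both shpkp3-2 arrays above both vec arrays (27.2% of the 30520 probes tested had this order), 0 had both below (18.0% of probes), and 2 overlapped. The study names both a log2 cut and a lower fold cut for these clones. With each shpkp3-2 array at least 1 from the vec mean on the log2 scale no member passed, against 1.74% of probes. At 1.5-fold from the vec mean on each shpkp3-2 array 2 members passed, IL18 and IL1RN, against 6.88% of probes. As the members were chosen on this contrast, nothing is read from these counts. The median difference of the 7 members was 0.36, and that of all probes tested was 0.05.

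**Figure D1:**
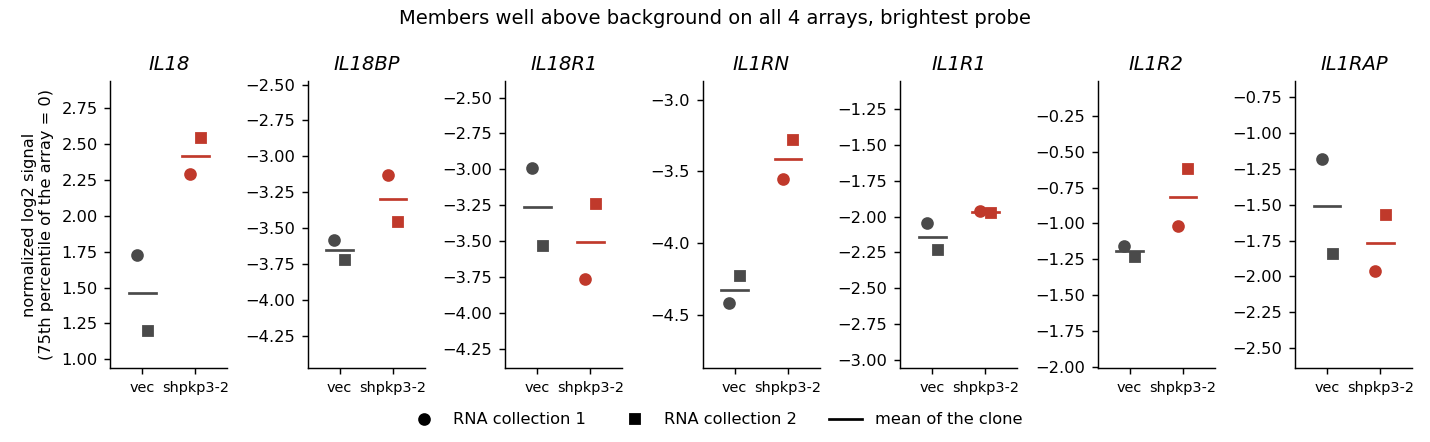
Normalized log2 signal of the 7 members well above background on all 4 arrays, with a panel for each member and the same span on each y axis. Circles and squares are the arrays of the first and second RNA collection and lines are clone means; both shpkp3-2 points lie above both vec points for IL18, IL18BP, IL1RN, IL1R1 and IL1R2.

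Among the cytokines, IL18 was the only member ligand that was measured above background. Its signal intensity was 1648 on vec 1, 876 on vec 2, 1859 on shpkp3-2 1 and 2177 on shpkp3-2 2. The normalized log2 values were 1.72 (vec 1), 1.20 (vec 2), 2.30 (shpkp3-2 1) and 2.54 (shpkp3-2 2). Both shpkp3-2 arrays were above both vec arrays, and vec 2 was the lowest of the 4. The vec mean was 1.46 ± 0.37 (SD, n = 2) and the shpkp3-2 mean was 2.42 ± 0.17 (SD, n = 2), a log2 difference of 0.96, or 1.94-fold. Within the first RNA collection the difference was 0.57 and within the second it was 1.34. The vec arrays differed from each other by 0.52, while the median of this difference over all probes tested was 0.28 in absolute value. A larger absolute difference between the clones than that of IL18 was found for 3.25% of the probes tested. As IL18 was chosen on this contrast, nothing is read from this share.

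IL1A and IL1B, the founding cytokines of the family, each had 1 probe. The signal intensity of IL1A was 7.75 on vec 1, 2.23 on vec 2, 3.91 on shpkp3-2 1 and 1.84 on shpkp3-2 2, and that of IL1B was 2.07 on vec 1, 2.67 on vec 2, 2.08 on shpkp3-2 1 and 1.85 on shpkp3-2 2. Signals of 8.41 to 9.74, by array, were the dimmest that passed as well above background. As neither clone was above background, no fold change is given for these genes.

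CASP1, the protease that cleaves the IL-18 precursor, also had 1 probe, and it was not well above background. Its signal intensity was 2.05 on vec 1, 2.12 on vec 2, 2.11 on shpkp3-2 1 and 1.80 on shpkp3-2 2. So in both clones the transcript of IL18 was measured while that of CASP1 was not detectable with this probe.

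Of the proteins that hold the cytokines back, IL1RN, the antagonist that occupies the IL-1 receptor without signaling, gave signal intensities of 23.3 on vec 1, 20.3 on vec 2, 32.3 on shpkp3-2 1 and 38.6 on shpkp3-2 2. Its normalized log2 values were -4.42 (vec 1), -4.23 (vec 2), -3.55 (shpkp3-2 1) and -3.28 (shpkp3-2 2), with both shpkp3-2 arrays above both vec arrays. The vec mean was -4.32 ± 0.13 (SD, n = 2) and the shpkp3-2 mean was -3.41 ± 0.19 (SD, n = 2), a log2 difference of 0.91, or 1.88-fold. The differences within the RNA collections were 0.87 and 0.95, closer to each other than those of IL18. The signal was low, and with normexp background correction the difference was 0.38. The second IL1RN probe was well above background on none of the arrays.

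IL18BP, a secreted protein that binds IL-18 and keeps it from its receptor, has 2 probes, both listed for the transcript NM_173042 and both well above background on all 4 arrays. The brighter gave signal intensities of 41.5 on vec 1, 28.9 on vec 2, 43.1 on shpkp3-2 1 and 34.0 on shpkp3-2 2, and normalized log2 values of -3.59 (vec 1), -3.72 (vec 2), -3.13 (shpkp3-2 1) and -3.46 (shpkp3-2 2). Its groups did not overlap, and its log2 difference was 0.36. The other gave signal intensities of 24.7 on vec 1, 18.0 on vec 2, 18.9 on shpkp3-2 1 and 14.7 on shpkp3-2 2. Its groups overlapped and its log2 difference was -0.13, so that the IL18BP probes had differences of opposite sign. The mean of both probes was 0.12.

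IL1R2, a decoy receptor that binds IL-1 and does not signal, gave signal intensities of 223 on vec 1, 162 on vec 2, 187 on shpkp3-2 1 and 243 on shpkp3-2 2. After scaling, the values were -1.16 (vec 1), -1.23 (vec 2), -1.02 (shpkp3-2 1) and -0.62 (shpkp3-2 2), without overlap. The log2 difference was 0.38, and it was 0.14 within the first RNA collection and 0.61 within the second. The second IL1R2 probe was at background on all 4 arrays.

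Among the signaling receptor chains, IL1R1, which binds IL-1, gave signal intensities of 121 on vec 1, 81.0 on vec 2, 97.3 on shpkp3-2 1 and 95.0 on shpkp3-2 2. Its normalized log2 values were -2.05 (vec 1), -2.23 (vec 2), -1.96 (shpkp3-2 1) and -1.98 (shpkp3-2 2). The groups did not overlap, but the log2 difference of 0.17 was smaller than the 0.19 between the vec arrays. A second IL1R1 probe was well above background on vec 1 alone.

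IL18R1, the chain that binds IL-18, gave signal intensities of 62.8 on vec 1, 32.8 on vec 2, 27.8 on shpkp3-2 1 and 39.5 on shpkp3-2 2. The normalized log2 values were -2.99 (vec 1), -3.54 (vec 2), -3.77 (shpkp3-2 1) and -3.24 (shpkp3-2 2), and the groups overlapped. The log2 difference of -0.24 stands for -0.78 within the first RNA collection and 0.29 within the second, and without vec 1 it was 0.03 and without shpkp3-2 1 it was 0.02. A second IL18R1 probe passed the background flag on 0 of 4 arrays.

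IL1RAP, the accessory chain that IL-1 receptors need for signaling, has 4 probes. The brightest, listed for NM_002182, gave signal intensities of 220 on vec 1, 106 on vec 2, 97.2 on shpkp3-2 1 and 126 on shpkp3-2 2. Its normalized log2 values were -1.18 (vec 1), -1.84 (vec 2), -1.96 (shpkp3-2 1) and -1.57 (shpkp3-2 2), so that vec 1 was the highest and the groups overlapped. The log2 difference was -0.26, with -0.78 within the first RNA collection and 0.27 within the second, and 0.08 without vec 1. A probe listed for NM_134470, which is another transcript of the gene, gave signal intensities of 29.0 on vec 1, 14.3 on vec 2, 15.3 on shpkp3-2 1 and 17.1 on shpkp3-2 2. Its differences within the collections were -0.52 and 0.28, the same order as for the brightest probe. The other IL1RAP probes were well above background on vec 1 alone.

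**Figure D2:**
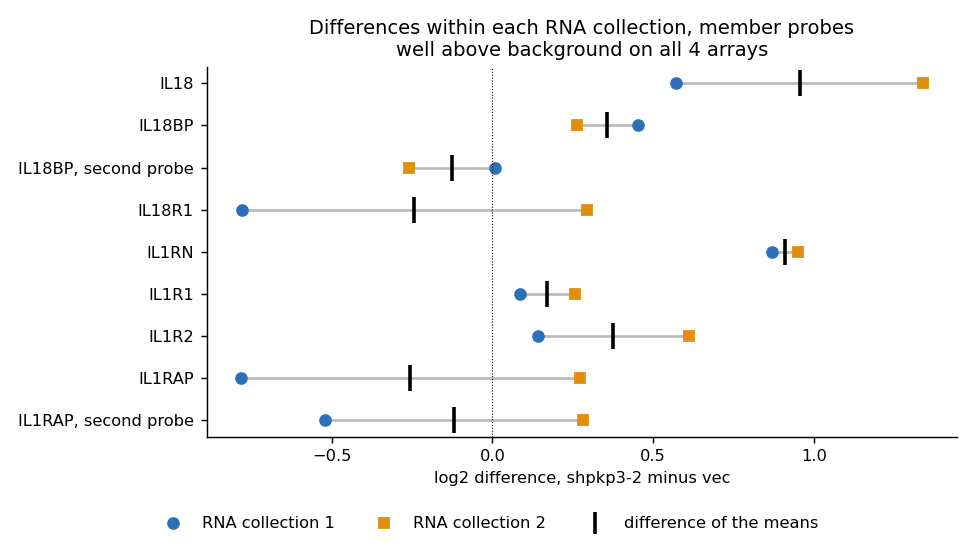
Log2 differences, shpkp3-2 minus vec, for the 9 member probes well above background on all 4 arrays. Circles and squares are the differences within the first and second RNA collection and black ticks are the differences of the clone means; IL18R1 and both IL1RAP probes lie below 0 in the first collection and above 0 in the second.

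To set IL18 beside other genes, its probe was compared with the 21614 probes that carry a gene symbol and were well above background on all 4 arrays. Each probe was centred on its own mean, and the distance is the Euclidean distance over the 4 arrays. The median distance to IL18 was 1.08. The nearest genes were EMP1 (0.020), PLD1 (0.071), HLA-DMA (0.083), AFAP1L2 (0.12) and AKAP12 (0.14), with log2 differences between the clones of 0.97, 0.92, 1.03, 0.92 and 0.99. With 4 arrays and so many probes, near profiles are found for many genes, and no test goes with this order. Of the members, IL1RN was the nearest to IL18, at 0.51, and IL1RAP the farthest, at 1.22.

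The genes around IL18 and CASP1 were described next, in the RefSeq gene order and with 5 protein-coding genes on each side. Around IL18, 7 of 10 genes were measured above background. Of these, 5 were higher and 2 lower in shpkp3-2, with differences from -0.11 for DLAT to 0.53 for PIH1D2 and a median of 0.28. The difference of IL18 (0.96) lay above those of all 7, but IL18 was chosen on this contrast, so that nothing is read from this order. Its direct neighbours were SDHD, a subunit of succinate dehydrogenase, at -0.08, and TEX12, which was not well above background. The values of the others were 0.41 for NKAPD1, 0.28 for TIMM8B, 0.50 for BCO2 and 0.02 for PTS, while PLET1 and NCAM1 were not well above background.

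On one side of CASP1 its direct neighbour was CARD16, an inhibitor of caspase-1, which was not well above background. On the other side lie CASP5 and CASP4, the caspases that sense bacterial lipopolysaccharide inside the cell. CASP5 gave signal intensities of 849 on vec 1, 725 on vec 2, 1622 on shpkp3-2 1 and 1426 on shpkp3-2 2. CASP4 gave 4480 on vec 1, 4854 on vec 2, 8973 on shpkp3-2 1 and 8670 on shpkp3-2 2. Both genes had both shpkp3-2 arrays above both vec arrays. The log2 differences were 1.17 for CASP5 (standard error 0.18, adjusted p = 0.0970 from limma) and 1.13 for CASP4 (standard error 0.22, adjusted p = 0.157 from limma), neither past the threshold. A second CASP4 probe gave 1.18. With a block for the RNA collection both were called (adjusted p = 0.0126 for CASP5 and 0.0176 for CASP4 from limma). That fit called 2.76% of all probes, against 0.396% without the block. Same-numbered arrays tended to deviate from their clone means in opposite directions (correlation -0.20). Of the remaining neighbours, DYNC2H1 was at -0.31, MSANTD4 at 0.16 and KBTBD3 at 0.24, while PDGFD, DDI1, CARD18 and GRIA4 were not well above background.

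The other genes of the pathway were read from 5 lists of 71 genes in all. Of these, 47 were tested, and limma called 0 of them at an adjusted p of 0.05, beside 0.396% of all probes, with 5 higher and 4 lower in shpkp3-2 at an unadjusted p of 0.05, beside 12.3% of all probes. In all, 22 had a higher and 25 a lower mean in shpkp3-2, and their median difference was -0.04 beside 0.05 for all probes tested. With a block for the RNA collection, 3 of the genes were called by limma, CASP4, CASP5 and CSF2, beside 2.76% of all probes in the same fit. CSF2, a growth factor of myeloid cells named after its values were seen, was well above background on both vec arrays and on neither shpkp3-2 array, and was at least 1.51-fold higher in vec (adjusted p = 0.231 from limma without the block). It entered the test through vec alone, with signals at background in shpkp3-2, so that it had to differ and its call supports nothing. Its normalized log2 means were -4.79 in vec and -5.83 in shpkp3-2.

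Of the other ligands of the IL-1 family, 3 of 7 were tested, with 2 higher and 1 lower and a median difference of 0.17. IL33, an alarmin of barrier cells, gave signal intensities of 41.8 on vec 1, 33.1 on vec 2, 60.0 on shpkp3-2 1 and 44.8 on shpkp3-2 2. Its log2 difference was 0.69 (standard error 0.21, adjusted p = 0.295 from limma). With normexp background correction, whose offset makes the differences of dim probes smaller, it was 0.36. IL1F10 gave 0.17 (adjusted p = 0.832 from limma), with overlapping groups and a range of -0.19 to 0.52 when each array was left out. Of the other receptors, 1 of 6 was tested. This was SIGIRR, a receptor that dampens signaling of the family in the gut epithelium, whose difference was 0.10 (adjusted p = 0.855 from limma) with overlapping groups and a range of -0.03 to 0.24 when each array was left out, with signal intensities of 4571 on vec 1, 4207 on vec 2, 4251 on shpkp3-2 1 and 3885 on shpkp3-2 2. IL18RAP, the second chain of the IL-18 receptor, was well above background on no array.

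Of the inflammasome genes and inflammatory caspases, 9 of 18 were tested, with 5 higher and 4 lower and a median of 0.26. CASP5 and CASP4, given above, had the largest differences. PYCARD, the adaptor that links sensors to caspase-1, and the sensors NLRP3, NLRC4 and AIM2 were well above background on no array.

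Of the genes of receptor proximal signaling, 22 of 24 were tested, with 9 higher and 13 lower and a median of -0.05. IKBKB, a kinase that releases NF-κB from its inhibitors, was at 0.80 (standard error 0.17, adjusted p = 0.180 from limma), and its other probes gave 0.91 and 0.14. NFKBIB, one of these inhibitors, was at 0.84 (adjusted p = 0.499 from limma), with normalized log2 values of 1.39 (vec 1), 2.74 (vec 2), 3.06 (shpkp3-2 1) and 2.76 (shpkp3-2 2). This difference rested on vec 1, as it was 0.17 without that array. The other NFKBIB probes gave 0.97 and 0.41.

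Of the target genes of IL-1 and NF-κB, 12 of 16 were tested, with 5 higher and 7 lower and a median of -0.14. CXCL1, a neutrophil attractant, gave signal intensities of 426 on vec 1, 255 on vec 2, 169 on shpkp3-2 1 and 185 on shpkp3-2 2, with both shpkp3-2 arrays below both vec arrays. Its log2 difference was -0.69 (standard error 0.20, adjusted p = 0.288 from limma). LCN2, a protein that binds bacterial iron carriers, was at 0.72 (standard error 0.28, adjusted p = 0.393 from limma), but at 0.42 without vec 2, 0.47 without shpkp3-2 2 and 0.33 with normexp background correction, with signal intensities of 38.5 on vec 1, 19.5 on vec 2, 32.9 on shpkp3-2 1 and 46.0 on shpkp3-2 2. IFNG, a lymphocyte cytokine that IL-18 is known to induce, was well above background on no array.

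**Figure D3:**
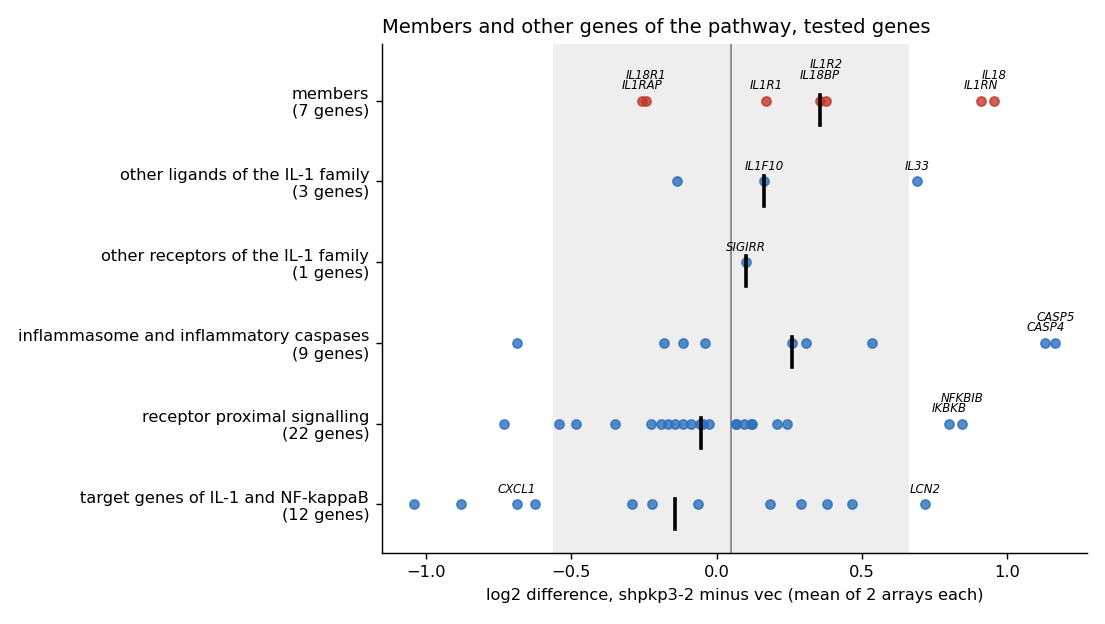
Log2 differences, shpkp3-2 minus vec, of the 7 tested members (red) and of the tested genes of 5 pathway lists (blue), with black ticks at the medians. The gray band spans the 5th to 95th percentile of all probes tested, -0.56 to 0.66, and the gray line is their median; IL18 and IL1RN lie to the right of the band, as do IL33, CASP4, CASP5, IKBKB, NFKBIB and LCN2, while CSF2, PTGS2, PELI2, CARD8, CXCL1 and CXCL3 lie to the left.

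Marker genes of other cells were read beside these values. The summed signal of the monocyte and macrophage markers, in units of the 75th percentile of each array, was 0.902 to 0.989 in vec and 1.66 to 2.00 in shpkp3-2. Of the 6 markers tested, 5 were higher and 1 was lower, while 56.9% of all probes tested were higher. Beside 0.396% of all probes, limma called 1 of the 6 markers. This was CD68, a protein of the lysosome (log2 difference 1.43, standard error 0.17, adjusted p = 0.0459 from limma). CSF1R, a receptor of myeloid growth factors, was at 0.97 (adjusted p = 0.258 from limma), and the other 4 tested markers lay between -0.03 and 0.27. CD68 and CSF1R thus carried most of the shift of the sum. The summed signal of the epithelial markers was 1109 to 1261 in vec and 1419 to 1449 in shpkp3-2. KRT19 made up 45.3% to 52.1% of it, KRT18 26.4% to 33.5% and KRT8 13.3% to 14.3%. The sum of the keratinocyte markers was 64.4 to 68.6 in vec and 74.7 to 78.9 in shpkp3-2, of which KRT10 made up 99.5% to 99.6%. For the fibroblast markers the sum was 2.14 to 3.63 in vec and 2.07 to 2.24 in shpkp3-2, of which THY1 made up 77.8% to 88.9%. The part of these shifts in the values of IL18 and IL1RN was not tested.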

How the data were processed

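RNA of the HCT116 derived clones vec and shpkp3-2 (2 arrays each) was labeled with Cy3. The authors deposited the output of Agilent Feature Extraction for each array, version 10.7.3.1 per the file headers and 9.1 per the submitters' notes. The deposited intensity (processed signal) is linear, background subtracted and detrended, with no scaling between arrays. The tables the authors deposited also hold other values, 0 or 1 flags of detection and outliers.

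The log2 intensity minus the 75th percentile of each array was taken, without spots flagged as non-uniform, and spots of a probe were averaged. The 30520 probes that passed the well above background flag on both arrays of either clone were tested with limma 3.58.1 in R 4.3.3, with Benjamini-Hochberg adjustment, and the analysis was tested on simulated data. Tables and plots were made with Python 3.11.15. Probes were matched to RefSeq symbols by accession (28595), symbol (2998) or older symbol (1176). A gene is given by its brightest probe. Precision is limited by how many arrays there are, and with 2 against 2 an exact permutation test cannot give a two-sided p under 0.333. The p-values measure the spread between RNA collections of 1 clone each.

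The numbers of the arrays pair them, as the design text puts the RNA of same-numbered arrays in 1 collection. Their deviations from the clone means were correlated at -0.20 across these probes. The comparison was made without the pairing, and the block is an alternative.

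The members and lists were chosen with earlier results of these data known. Named are all members, PKP3, the 5 genes nearest to IL18, the neighbours of IL18 and CASP1, and of each pathway list the genes called and the 2 largest differences among genes above background on all arrays. The other genes named were chosen after their values were seen. Alternatives were normexp correction (offset 50), quantile normalization, median centring, the percentile over detected probes, other filters, a trended and robust prior, a log2 difference of 1 on each shpkp3-2 array as in a supplementary table of the study, 1.5-fold as in a figure legend, other ways to combine probes, the block and each array left out. With an array left out, the lone array is assumed to vary like the other clone.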

Additional observations from a re-analysis of the deposited data

How the results depend on the processing

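The IL18 difference ranged from 0.69 (without vec 2) to 1.22 (without vec 1) over the 10 alternatives. The replicate block left it at 0.96, as a block cannot move a difference in this balanced design. Nor could the mean over probes move it, as IL18 has 1 probe. IL1R1, IL1R2, IL18BP and IL1RN had a higher mean in shpkp3-2 in every alternative run, with lowest values of 0.08 (without vec 2), 0.18 (without shpkp3-2 2), 0.12 (mean of both probes) and 0.38 (normexp). IL18R1 ranged from -0.52 to 0.03 and IL1RAP from -0.59 to 0.08. At 1.5-fold 2 members passed. Of the pathway genes limma called 0, but 1 with normexp (CASP5), 1 with the trended and robust prior (CASP5), 3 with the replicate block (1 of them, CSF2, at background in shpkp3-2) and 0 to 1 with an array left out (IL36RN without shpkp3-2 1, which then passed the filter through shpkp3-2 2 alone, against background in vec, so that nothing is read from it), while 2 passed at a log2 difference of 1 (CASP4 and CASP5) and 7 at 1.5-fold (also IKBKB, NFKBIB, CXCL1, CXCL3 and CSF2). The adjusted p ranged over the alternatives from 0.0126 to 0.362 for CASP5 and from 0.0176 to 0.410 for CASP4. Over all probes, 76 were called higher and 45 lower. These counts were 503 and 338 with the replicate block, 10 and 8 with no filter on detection, 25 and 21 for probes well above background on all arrays, 1 and 1 with the weaker detection flag, 341 and 190 at a log2 difference of 1 on each shpkp3-2 array, and 1292 and 808 at 1.5-fold. Quantile normalization gave 42 higher and the percentile over detected probes 47. With each array left out the counts ranged from 106 to 243 and from 55 to 152. The counts at 1.5-fold and a crossed pairing were added after the data were seen. The crossed pairing gave 64 and 40 and no pathway gene. The cause of these moves was not tested. Median centring lowered every difference by the same amount. With normexp the IL18R1 difference was -0.03. Signals near background limit what IL1A, IL1B, CASP1, IL18BP, IL18R1, IL1RN, IL33, IL1F10 and LCN2 can show.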
